A study of Mus musculus with 8 samples.

Results

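Transcripts of the nuclear genes for mitochondrial ribosomal proteins were measured by RNA sequencing in mouse heart muscle cells that had or had not passed through the cell cycle after forced expression of cell cycle genes. The genes are all protein-coding rows of the deposited count table whose symbol starts with Mrpl (large subunit) or Mrps (small subunit). They numbered 77 of 37991 genes, with 48 Mrpl and 29 Mrps genes. Of these, 74 had enough reads to be tested, 46 Mrpl and 28 Mrps. Single colored cells, described by the labels as treated to enter the cell cycle and having done so, gave 4 libraries, and double colored cells, treated alike but not having cycled, gave 4 libraries. Both groups came from hearts of alpha-MHC MERCREMER MADM mice, injected with adenovirus for 4 cell cycle genes 2 weeks before isolation of adult cardiomyocytes. Neither an uninjected heart nor an animal age is among the labels, and they do not say whether a library holds 1 heart or a pool. The p-values therefore measure the spread between libraries, which may be partly technical.

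In these mice the alpha myosin heavy chain promoter, active in cardiomyocytes, drives a Cre recombinase that tamoxifen switches on. MADM (mosaic analysis with double markers) joins split fluorescent protein genes by recombination between homologous chromosomes. When such a cell divides, its daughters can each keep 1 color, so that a single colored cell marks a past division. A double colored cell can arise without division, and some kinds of division also leave both colors in 1 daughter, so double color alone does not show that a cell never divided.

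The mitochondrial ribosome translates the few messenger RNAs that the mitochondrial genome encodes, all of which specify core subunits of the respiratory chain and the ATP synthase. Its ribosomal RNAs come from mitochondrial DNA, but all its proteins are nuclear-encoded, made in the cytosol and imported. The small subunit reads the messenger RNA, and the large subunit forms the peptide bond and feeds the new chain to the inner membrane. Some of the proteins descend from bacterial ribosomal proteins, and others are found in mitochondria alone. Heart muscle depends on oxidative phosphorylation, and human variants in several of these genes, MRPL3, MRPL44 and MRPS22 among them, cause cardiomyopathy.

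The promoters of 4 genes are shown because their transcripts are among those described most closely in the next paragraphs and because they differ in the sequence elements they hold. RefSeq (GRCm38.p6) gave a promoter for 68 of the 77 genes, spanning 250 bases before to 50 bases after the annotated start. The 150 bases just upstream of the start are printed 5′ to 3′ on the gene's strand, with capitals marking a match on either strand to one of the elements searched.
Mrps31, chr8:22411190-22411339, plus strand: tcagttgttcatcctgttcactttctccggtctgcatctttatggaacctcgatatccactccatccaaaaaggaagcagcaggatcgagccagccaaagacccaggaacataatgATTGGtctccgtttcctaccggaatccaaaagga
Mrpl34, chr8:71464776-71464925, plus strand: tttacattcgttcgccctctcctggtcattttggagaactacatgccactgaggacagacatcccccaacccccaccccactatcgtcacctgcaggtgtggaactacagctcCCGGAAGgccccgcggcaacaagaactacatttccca
Mrpl3, chr9:105053118-105053267, plus strand: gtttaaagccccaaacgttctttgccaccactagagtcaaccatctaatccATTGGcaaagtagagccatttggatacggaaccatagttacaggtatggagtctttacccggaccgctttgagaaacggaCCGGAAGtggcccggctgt
Mrpl39, chr16:84735245-84735394, minus strand: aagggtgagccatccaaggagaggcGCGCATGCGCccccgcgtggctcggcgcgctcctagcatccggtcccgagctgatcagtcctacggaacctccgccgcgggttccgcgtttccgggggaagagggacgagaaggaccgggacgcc
Capitals in Mrps31 mark the reverse complement of CCAAT, capitals in Mrpl34 mark the ETS element CCGGAAG, Mrpl3 holds both of these, and Mrpl39 holds the element of nuclear respiratory factor 1 (NRF1).

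Nuclear respiratory factors and ETS-type factors are known regulators of nuclear genes for mitochondrial proteins, and both kinds of letters were searched on both strands of the whole window. The ETS letters CCGGAAG were found in 25 of 68 promoters (36.8%), against 2265 of 17492 protein-coding promoters of the same length (12.9%). Large subunit genes held them in 14 of 42 promoters (33.3%) and small subunit genes in 11 of 26 (42.3%). The palindromic NRF1 letters, those in capitals in Mrpl39, stood in 3 promoters (4.41%), all of large subunit genes, against 257 of all promoters (1.47%). YY1 letters, ATGGCGGC, stood in 12 of the 68 (17.6%) against 613 of all (3.5%), and CCAAT in 26 (38.2%) against 7402 (42.3%). These shares describe letters in a fixed window and do not show that any factor binds there.

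The libraries held 25604705 to 30082278 assigned reads in single colored cells and 23820700 to 30057373 in double colored cells, but most of these reads came from mitochondrial DNA. The mitochondrial share was 77.5% to 85.9% in single colored and 84.2% to 88.3% in double colored libraries, which left 3750616 to 6112595 and 3503353 to 3850391 nuclear reads. Libraries were scaled with TMM factors, which assume that the typical gene has the same level everywhere, and levels are given as CPM, read counts brought to a common library size by these factors. All 13 cardiomyocyte markers were above 0 in every library, with a summed level of 14600 to 26900 CPM in single and 23600 to 31100 CPM in double colored libraries and a median log2 fold change of −0.44, none past the threshold. Of 16 tested leukocyte markers 12 were called higher in single colored cells (sums of 253 to 441 against 108 to 154 CPM). Of 8 fibroblast markers 1 was called higher, Col1a1 (sums of 623 to 1850 against 300 to 738 CPM), where 2.32% of all genes were called higher. Endothelial markers summed to 127 to 161 CPM in single and 131 to 175 CPM in double colored libraries. Cd3g and Cd79a were at 0 in some libraries. With the replicate number as a block 2 of the 13 cardiomyocyte markers were called lower (Pln and Tnni3), against 2.57% of all genes. The same fit called 14 leukocyte, 4 fibroblast and 1 endothelial markers higher, against 4.97% of all genes. Without the block, 2 of 8 fibroblast and 4 of 7 endothelial markers had a negative log2 fold change (medians 0.65 and −0.06). The part of these markers in the results on the mitochondrial ribosome was not tested, and in such bulk libraries fewer cells of a type and less RNA per cell cannot be told apart. The labels give the number of injected genes, 4, but not their names. From general knowledge of the study they are Cdk1, Cdk4, Ccnb1 and Ccnd1, and these were not among the genes past the threshold, with log2 fold changes of 0.02, −0.13, 1.35 and −0.06. These values count reads assigned to the mouse genes, and whether they include transcripts of the injected genes is not known. The Ccnb1 value rests on 0 to 48 reads per library.

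No mitochondrial ribosomal protein gene passed the threshold between single and double colored cells in the fit without a replicate block, and 1, Mrps31, did with it. Most had a slightly negative log2 fold change, lower in single colored cells on the TMM scale. With edgeR's quasi-likelihood test and an adjusted p of 0.05 over 12466 genes, 0 of 74 were called, against 2.48% of all genes (309 genes), of which 2.32% were higher and 0.16% lower in single colored cells. At an unadjusted p under 0.05, 8 of 74 were lower and 0 higher, where the shares of all genes were 6.1% and 9.02%. With the replicate number as a block 1 gene was called (Mrps31, lower, log2 fold change −0.65, adjusted p = 0.0315, edgeR), where 2.57% of all genes were called lower and 4.97% higher, and 11 were lower at an unadjusted p under 0.05, against 9.81% of all genes. DESeq2 called 0, with a smallest adjusted p of 0.0561, where it called 556 genes over the whole table. It gave 8 genes an unadjusted p under 0.05, all of them lower. The share of all genes at that p was not computed for DESeq2, so this count has no background. The log2 fold change of single over double colored cells was negative for 61 of 74 genes, against 50.6% of all genes tested. Its median was −0.23, with quartiles of −0.35 and −0.05, beside a median of −0.01 and quartiles of −0.24 and 0.27 over all genes. The precision is limited, since the median standard error of a single gene was 0.24 on the log2 scale (0.15 to 0.60) and a gene had a mean of 11.9 to 560 reads per library (median 104).

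The sign of these small differences depends on the scaling. When libraries were scaled by their total reads alone, the median of all genes was 0.48 and that of the 74 genes was 0.22, with 10 negative values, and 63 of the 74 lay below the median of all genes. The distance between the 2 medians was −0.26 under that scaling and −0.23 with TMM. Scaling by the total of nuclear-encoded reads gave −0.13 for the 73 genes tested, beside 0.10 for all genes. Statements on lower values are therefore relative to the typical gene of the same libraries, and as a share of all reads most of these genes were higher in single colored cells.

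Taken as a sum on the TMM scale, the transcripts of both subunits were lower in every single colored library than in any double colored one, but not as a share of nuclear reads or of all reads. Large subunit genes summed to 174, 238, 225 and 252 CPM in single colored libraries 1 to 4, against 281, 261, 256 and 271 CPM in double colored libraries 1 to 4. Small subunit genes summed to 74.5, 92.6, 96.8 and 104 CPM in single colored libraries, against 105, 107, 105 and 107 CPM in double colored ones. The groups did not overlap in either sum, although single colored library 4 came within a few CPM of the double colored range, and single colored library 1 lay far below the other 3. The mean was 222 ± 34.0 against 267 ± 11.1 CPM for the large subunit and 92.0 ± 12.6 against 106 ± 1.15 CPM for the small subunit (SD, n = 4 each). Per 10000 nuclear reads the large subunit sum was 13.1, 16.1, 14.1 and 17 in single colored libraries, against 19, 16.4, 15.7 and 16.8 in double colored ones, so that the groups overlapped through single colored libraries 2 and 4. Per 10000 reads of any kind it was 2.49, 2.27, 3.18 and 2.48 in single colored libraries, against 2.35, 1.91, 2.49 and 2.38 in double colored ones, with single colored libraries mostly the higher ones. Per 10000 nuclear reads the small subunit sum was 5.61, 6.25, 6.09 and 6.99 in single colored libraries, against 7.1, 6.75, 6.43 and 6.65 in double colored ones, and there single colored library 4 alone overlapped. Genes are grouped by symbol in these sums, so Mrps30, Mrps18a and Mrps36, described below, count with the small subunit. The sums were not recomputed with subunits assigned by structure. No test was made of these sums, because the genes were chosen with earlier results known.

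**Figure D1:**
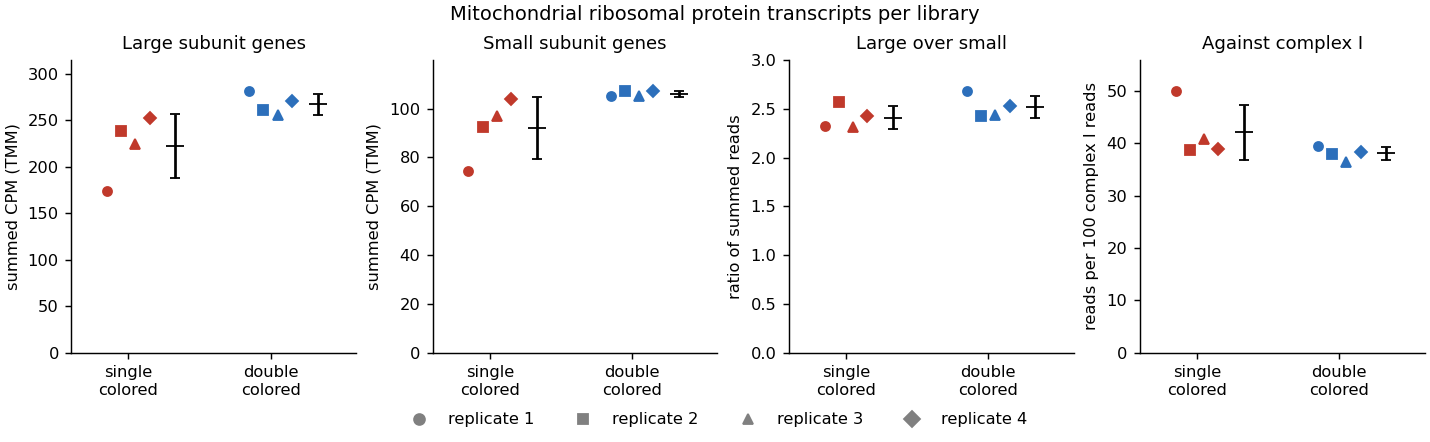
Summed levels of Mrpl genes and of Mrps genes (CPM on the TMM scale), the ratio of their reads, and their reads per 100 reads of nuclear complex I genes, in 4 single colored (left) and 4 double colored (right) libraries; bars show the mean ± SD, and marker shape gives the replicate number. On this scale both sums lie lower in every single colored library, library 1 lowest (174 and 74.5 CPM), which does not hold per 10000 nuclear reads or per 10000 reads of any kind, while the ratio of large to small subunit reads overlaps between groups.

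The medians of the 2 subunits lay close together. The large subunit had a median log2 fold change of −0.25 over 46 tested genes, 39 of them negative and 7 with an unadjusted p under 0.05. The small subunit had a median of −0.23 over 28 tested genes, with 22 negative and 1 under 0.05. The genes under 0.05 were all lower in single colored cells. Of all genes tested 50.6% were negative, and 6.1% were lower with an unadjusted p under 0.05 (edgeR). The subunits were not tested against each other. Values ran from −0.70 to 0.26 in the large and from −0.65 to 0.34 in the small subunit. Reads of large subunit genes were 2.33, 2.57, 2.32 and 2.43 times those of small subunit genes in single colored libraries, and 2.68, 2.43, 2.44 and 2.53 times in double colored libraries. The groups overlapped in this ratio, whose mean was 2.41 ± 0.116 in single and 2.52 ± 0.116 in double colored libraries (SD, n = 4 each), a log2 difference of −0.06 that does not depend on the scaling. The ratio too groups genes by symbol and was not recomputed by structure.

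Genes classed as of bacterial descent and genes classed as mitochondria-specific were also set side by side. Mrps30 and Mrps18a were placed in the large subunit, where structures show their proteins. The classes do not follow descent throughout, since Mrps18a and Mrps18b were classed as mitochondria-specific and their relative Mrps18c as of bacterial descent. In the large subunit the median was −0.25 over 28 genes of bacterial descent and −0.32 over 20 mitochondria-specific ones. In the small subunit it was −0.23 over 16 and −0.13 over 9. These medians are descriptions, and the differences between them were not tested.

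**Figure D2:**
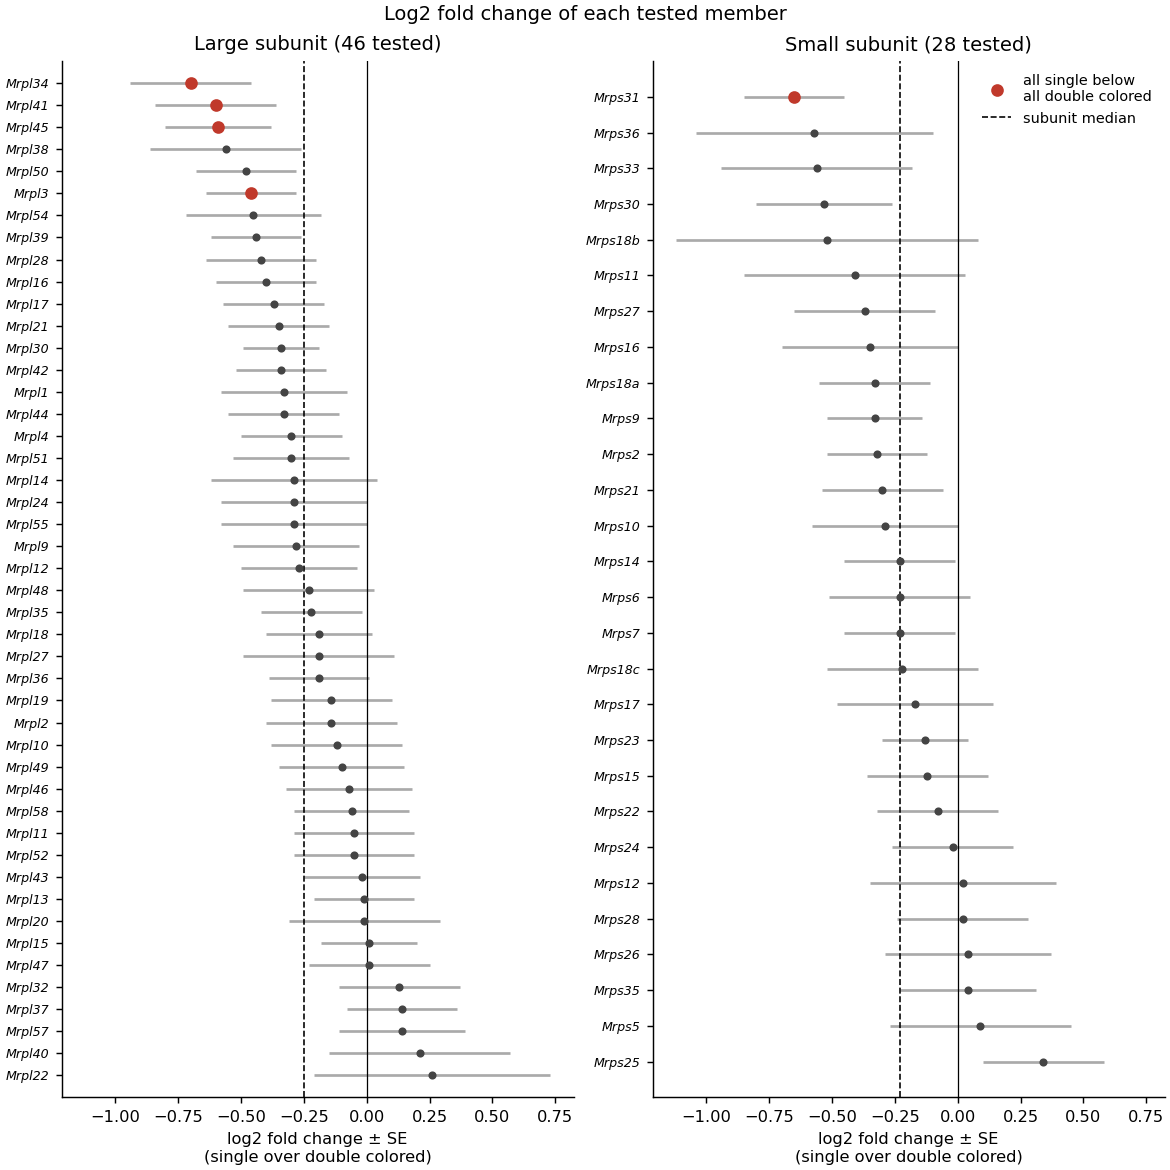
Log2 fold change (single over double colored, ± SE) of each tested gene, ordered by value, for the large (left) and small (right) subunit; red points are the 5 genes whose single colored libraries all lay below all double colored ones, and dashed lines are the subunit medians of −0.25 and −0.23. Most points lie left of 0 in both panels on the TMM scale (61 of 74, against 10 with library totals alone), and no gene passed the threshold in this fit, which has no replicate block.

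In 5 genes every single colored library lay below every double colored one, a share to be read against 3.76% of all genes tested, and in 0 genes the order was the opposite (5.37% of all genes). These were Mrps31, Mrpl34, Mrpl41, Mrpl45 and Mrpl3, each with an adjusted p over 0.05 (edgeR). These orders hold on the TMM scale, and of the 5 the log2 fold change turned positive with library totals alone in Mrpl3.

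Mrps31 (ENSMUSG00000031533, mm9 chr8:23521812-23540137) encodes a small subunit protein without a bacterial counterpart. It had 4.27, 4.61, 4.92 and 6.63 CPM in single colored libraries 1 to 4, against 6.87, 6.73, 9.59 and 8.82 CPM in double colored libraries 1 to 4. The highest single colored value lay just under the lowest double colored value. Its log2 fold change was −0.65 ± 0.20 (SE; adjusted p = 0.116, edgeR), the smallest adjusted p of all 74 genes, and its single colored library was the lower one in each of the 4 same-numbered pairs. It was the one gene of the 74 called with the replicate block. Its promoter, printed above, holds the CCAAT letters on the reverse strand but neither ETS nor NRF1 letters.

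Mrpl34 (ENSMUSG00000034880, mm9 chr8:73988825-73989651) encodes a large subunit protein of bacterial descent. Its levels were 1.86, 3.28, 3.30 and 3.57 CPM in single colored libraries and 5.65, 3.91, 4.32 and 5.52 CPM in double colored libraries. Single colored library 1 lay far below the other 3. The log2 fold change, −0.70 ± 0.24 (SE; adjusted p = 0.169, edgeR), was the most negative of all 74 genes.

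Mrpl41 (mm9 chr2:24829637-24830618), a mitochondria-specific large subunit gene, had 2.41, 2.16, 3.64 and 4.09 CPM in single colored libraries, against 4.48, 4.36, 5.49 and 4.30 CPM in double colored ones. Its single colored libraries fell into a low pair, 1 and 2, and a pair close to the double colored range, 3 and 4. The log2 fold change was −0.60 ± 0.24 (SE; adjusted p = 0.238, edgeR).

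Mrpl45 (mm9 chr11:97177030-97191234) encodes a protein at the exit of the peptide tunnel that ties the ribosome to the inner mitochondrial membrane. It had 3.20, 4.36, 3.10 and 3.81 CPM in single colored libraries, against 5.90, 4.54, 6.39 and 4.81 CPM in double colored libraries. Here libraries 1 and 3 differed most between the colors, by −0.87 and −1.03 on the log2 scale, and libraries 2 and 4 by −0.06 and −0.33. The log2 fold change was −0.59 ± 0.21 (SE; adjusted p = 0.182, edgeR).

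Mrpl3 (mm9 chr9:104955569-104979796) encodes a protein of bacterial descent near the site of peptide bond formation. Its levels were 6.18, 8.86, 8.27 and 7.62 CPM in single colored libraries, against 12.9, 11.4, 9.03 and 9.11 CPM in double colored libraries. The gap between the groups was small, with single colored library 2 just below double colored library 3. The log2 fold change was −0.46 ± 0.18 (SE; adjusted p = 0.234, edgeR), which became 0.03 when libraries were scaled by total reads alone.

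Another 3 large subunit genes had an unadjusted p under 0.05 with overlapping groups. Mrpl39 (mm9 chr16:84717821-84735987), whose protein resembles part of a threonyl-tRNA synthetase, had 8.23, 10.4, 8.17 and 12.3 CPM in single colored libraries, against 13.7, 10.6, 14.7 and 14.1 CPM in double colored ones. Only double colored library 2 lay within the single colored range, and the log2 fold change was −0.44 ± 0.18 (SE). Mrpl50, a mitochondria-specific gene, had 4.72, 6.0, 7.47 and 7.66 CPM in single colored libraries, against 7.16, 10.2, 9.55 and 9.11 CPM in double colored ones (log2 fold change −0.48 ± 0.20, SE). Mrpl30, of bacterial descent, had 11.1, 13.1, 15.8 and 13.8 CPM in single colored libraries, against 19.1, 14.8, 15.9 and 18.4 CPM in double colored ones. Its log2 fold change was −0.34 ± 0.15 (SE; adjusted p = 0.304, edgeR), and the overlap came from single colored library 3 alone.

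**Figure D3:**
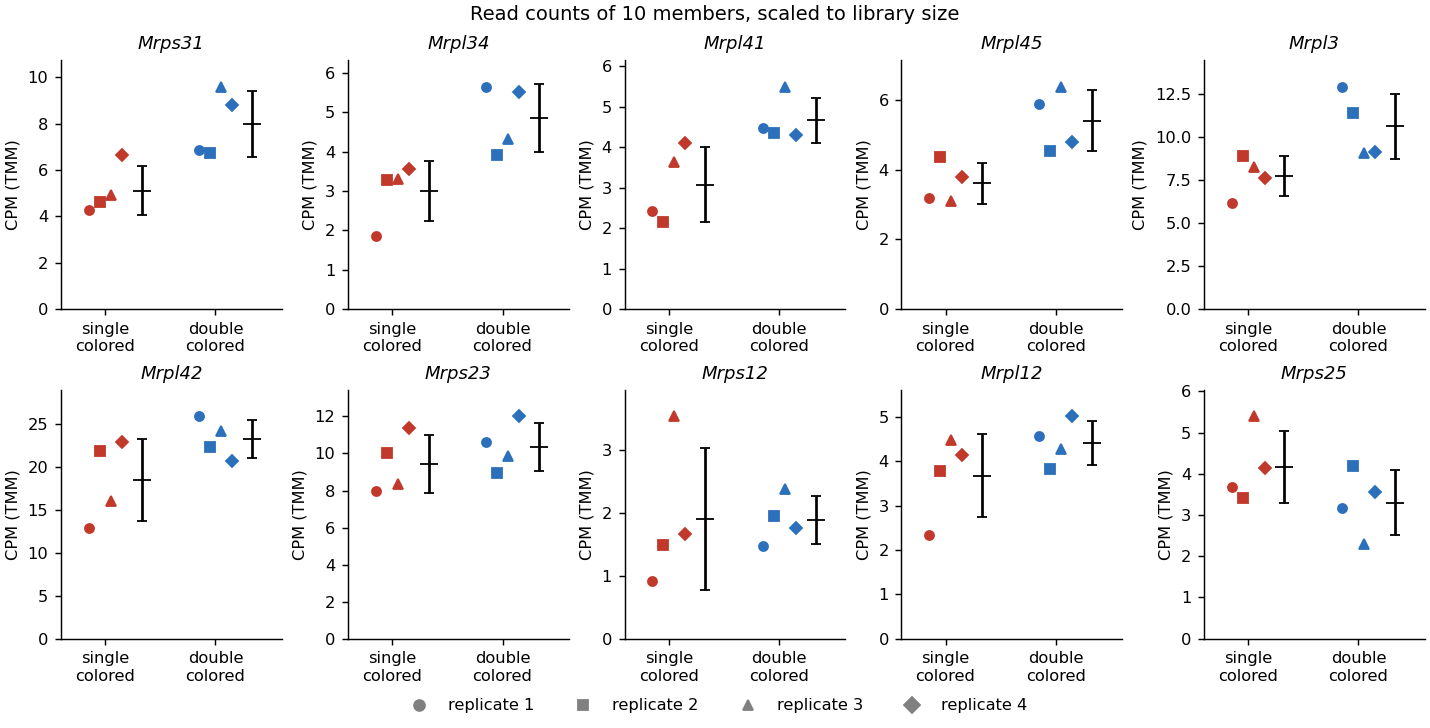
Levels of 10 genes (CPM on the TMM scale) in 4 single colored (left) and 4 double colored (right) libraries; bars show the mean ± SD, and marker shape gives the replicate number. On this scale, in the first 5 genes (Mrps31 to Mrpl3) no single colored library reaches a double colored one, while the groups of the other 5 overlap and Mrps25 has the higher mean in single colored cells (4.16 against 3.30 CPM).

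Per kilobase of exon, the scale on which genes can be compared with each other, levels spanned 146-fold over the tested genes, from 0.214 to 31.3 CPM per kilobase. Large subunit genes had a median of 2.52 and small subunit genes of 1.6 CPM per kilobase. The highest was Mrpl42, a mitochondria-specific large subunit gene, at 27.7 CPM per kilobase in single and 35.0 in double colored cells. It had 12.9, 21.9, 16.1 and 22.9 CPM in single colored libraries, against 25.9, 22.3, 24.2 and 20.7 CPM in double colored ones, so that the groups overlapped through libraries 2 and 4. Mrpl16, of bacterial descent, followed at 12.2 CPM per kilobase in single and 16 in double colored cells (log2 fold change −0.40 ± 0.20, SE). Mrps23 was the highest small subunit gene at 6.05 CPM per kilobase in single and 6.63 in double colored cells, and its groups overlapped widely (7.99, 10, 8.35 and 11.4 against 10.6, 8.95, 9.85 and 12 CPM, log2 fold change −0.13 ± 0.17, SE). Mrps31 and Mrps28 came next in the small subunit, and Mrps28 hardly differed, with a log2 fold change of 0.02 ± 0.26 (SE).

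At the low end stood Mrps18b at 0.175 CPM per kilobase in single and 0.253 in double colored cells. Its values of 0.524, 0.244, 0.182 and 0.516 CPM in single colored libraries, against 0.293, 1.14, 0.389 and 0.293 CPM in double colored ones, show a single high library, double colored 2. Exons of Gm16279 on the other strand cover 30.5% of its exons, and whether reads were counted by strand is not stated, so these reads may not all be its own. Mrps10, Mrps5, Mrpl48, Mrpl19 and Mrpl22 were also among the lowest of their subunit. Log2 fold changes were −0.29 ± 0.29 for Mrps10, −0.23 ± 0.26 for Mrpl48 and −0.14 ± 0.24 for Mrpl19 (SE). Exons of Gcfc2 on the other strand cover 36.0% of those of Mrpl19, and exons of another gene on the same strand cover 30.4% of those of Mrpl48. Mrpl22 had the most positive value of the large subunit, 0.26 ± 0.47 (SE), from 0.838, 0.349, 0.572 and 0.714 CPM in single and 0.461, 0.591, 0.432 and 0.585 CPM in double colored libraries. The double colored values lay inside the single colored range.

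Genes with known roles at the working sites of the ribosome were low to moderate in level, and none passed the threshold. Mrps12, at the decoding site of the small subunit, had 0.917, 1.5, 3.54 and 1.67 CPM in single colored libraries, against 1.47, 1.95, 2.38 and 1.76 CPM in double colored ones. Single colored library 3 was high, and the log2 fold change of 0.02 ± 0.37 (SE) turned to −0.49 without that library. Mrps5, whose mutation lowers the accuracy of mitochondrial translation in mice, had 1.73, 2.02, 2.81 and 3.02 CPM in single and 2.30, 3.41, 0.821 and 2.47 CPM in double colored libraries. Double colored library 3 was low there, and without it the log2 fold change of 0.09 ± 0.36 (SE) became −0.19.

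Mrpl12 and Mrpl11 belong to the stalk region where translation factors dock. Mrpl12, also reported to bind the mitochondrial RNA polymerase, had 2.33, 3.77, 4.48 and 4.13 CPM in single colored libraries, against 4.56, 3.82, 4.28 and 5.01 CPM in double colored ones. Mrpl11 had 2.33, 4.36, 4.14 and 4.76 CPM in single colored libraries, against 4.23, 3.45, 3.76 and 4.64 CPM in double colored ones. In both genes single colored library 1 was the lowest of all 8 and the other libraries overlapped. Their log2 fold changes were −0.27 ± 0.23 for Mrpl12 and −0.05 ± 0.24 for Mrpl11 (SE), and without single colored library 1 they were −0.10 for Mrpl12 and 0.13 for Mrpl11. Mrpl58, a peptide release factor built into the large subunit that frees stalled ribosomes, stood at −0.06 ± 0.23 (SE).

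Genes linked to cardiomyopathy in humans, besides Mrpl3, were Mrpl44 and Mrps22. Mrpl44 had 2.78, 4.47, 3.98 and 3.89 CPM in single and 4.27, 3.82, 4.88 and 6.02 CPM in double colored libraries, a log2 fold change of −0.33 ± 0.22 (SE). Mrps22 had 2.36, 2.76, 4.22 and 3.89 CPM in single and 3.52, 3.36, 3.67 and 3.43 CPM in double colored libraries. All double colored values of Mrps22 lay between the second and the third single colored value in order of size, and its log2 fold change was −0.08 ± 0.24 (SE).

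Several Mrps genes carry a name that does not match the place of their protein. Mrps30 and Mrps18a encode proteins of the large subunit. Mrps30 had 2.12, 1.68, 1.85 and 2.74 CPM in single colored libraries, against 3.06, 2.41, 2.46 and 4.14 CPM in double colored ones, and the single colored library was the lower one in each same-numbered pair, by −0.40 to −0.58 on the log2 scale. Its groups overlapped through single colored library 4, and its log2 fold change was −0.53 ± 0.27 (SE; adjusted p = 0.384, edgeR). Mrps18a had 3.46, 2.62, 3.41 and 4.52 CPM in single and 4.27, 3.77, 4.54 and 5.01 CPM in double colored libraries, also lower in every pair (log2 fold change −0.33 ± 0.22, SE). Its relatives Mrps18b and Mrps18c, both of the small subunit, had log2 fold changes of −0.52 ± 0.60 and −0.22 ± 0.30 (SE). Mrps36 encodes a subunit of the alpha-ketoglutarate dehydrogenase complex rather than a ribosomal protein, and it had 0.419, 0.558, 0.755 and 0.317 CPM in single and 0.837, 1.05, 0.605 and 0.585 CPM in double colored libraries (log2 fold change −0.57 ± 0.47, SE).

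A further pair of small subunit genes with bacterial counterparts ranked among the smallest p of their subunit. Mrps9 had 4.06, 4.85, 4.22 and 5.99 CPM in single and 5.74, 6.04, 6.61 and 5.52 CPM in double colored libraries, with single colored library 4 inside the double colored range. Mrps2 had 3.80, 3.70, 5.15 and 3.93 CPM in single and 4.56, 4.64, 6.22 and 5.35 CPM in double colored libraries, and single colored library 3 alone made the groups overlap. Their log2 fold changes were −0.33 ± 0.19 for Mrps9 and −0.32 ± 0.20 for Mrps2 (SE).

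The most positive value of all 74 genes was that of Mrps25, a mitochondria-specific small subunit gene. It had 3.69, 3.42, 5.39 and 4.13 CPM in single colored libraries, against 3.18, 4.18, 2.29 and 3.55 CPM in double colored ones, and its groups overlapped, at a log2 fold change of 0.34 ± 0.24 (SE; adjusted p = 0.565, edgeR). Exons of Nr2c2 on the other strand cover 53.7% of its exons, so in that part its reads and those of Nr2c2 cannot be told apart without the strand. Of the 74 tested genes 22 share some exon sequence with a gene on the other strand, and in 5 the overlap is over 20% of the exons. Exons of other genes on the same strand cover 43.8% of the exons of Mrps6 (Slc5a3), 30.4% of those of Mrpl48 and 15.4% of those of Mrps24 (Urgcp).

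Another 3 genes had too few reads for the test. Mrpl23 had 1, 1, 8 and 1 reads in single colored libraries and 4, 2, 0 and 2 in double colored libraries. Mrps34 had 4, 1, 4 and 2 reads in single and 2, 1, 0 and 1 in double colored libraries. Mrpl53 had a total of 1 read over all 8 libraries, in single colored library 3. Exons of other genes on the same strand cover 87.1% of the exons of Mrpl53 (Gm42688) and 37.0% of those of Mrps34 (Nme3), and exons of Mapk8ip3 on the other strand cover 63.4% of those of Mrps34. No fold change is given for these genes.

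The lower values were spread unevenly over the replicate numbers. In the pair numbered 1, 66 of 74 genes were lower in the single colored library, with a median difference of −0.58 on the log2 scale. In pairs 2, 3 and 4 the number was 53, 45 and 45, with medians of −0.18, −0.14 and −0.11, while over all genes the medians of the 4 pairs lay between −0.02 and 0.01. Single colored library 1 was the lowest of all 8 libraries for 37 of the 74 genes, and it also had the lowest cardiomyocyte marker sum (14600 CPM) and the highest leukocyte and fibroblast sums (441 and 1850 CPM), whose part in the result was not tested. The share of all genes at their lowest in that library was not computed. Without that library the median was −0.12 for the large and −0.20 for the small subunit, and 53 of 74 genes were negative. Without both libraries numbered 1 the medians were −0.09 and −0.18, with 51 negative.

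In all 4 pairs 19 of the 74 genes were lower in the single colored library (25.7%), against 13.7% of all genes, and in 0 of the 74 was the single colored library the higher one in all 4 (14% of all genes). The spread between libraries was wider among single colored cells, where the median coefficient of variation was 25.2%, against 19.2% in double colored cells, and it was wider for 53 of the 74 genes. This spread was not computed over all genes, so whether it is particular to these genes is not known.

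**Figure D4:**
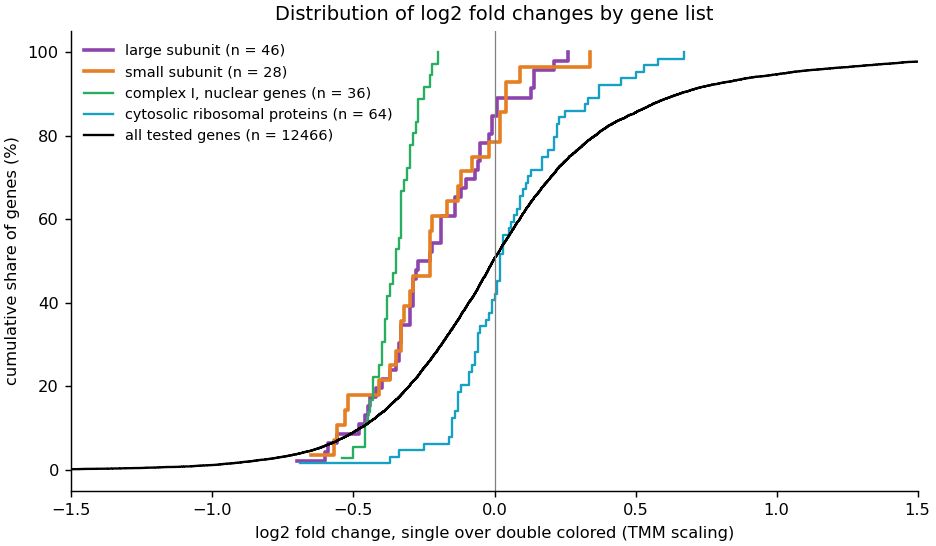
Cumulative share of genes (%) by log2 fold change, single over double colored with TMM scaling, for large and small subunit genes, nuclear complex I genes, cytosolic ribosomal protein genes and all tested genes. The curves of both subunits run close together, between that of complex I genes (median −0.35) and those of cytosolic ribosomal protein genes and all genes (0.02 and −0.01).

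The other genes of mitochondrial translation were given the same test, and none passed the threshold, with or without the replicate block. A list of 18 genes that serve mitochondrial translation, holding initiation, elongation and release factors, tRNA-modifying enzymes (Qrsl1, Gatb, Gatc, Mtfmt), the messenger RNA binding genes Lrpprc and Slirp, the translational activator Taco1 and the membrane insertase Oxa1l, had 17 negative values and a median log2 fold change of −0.21. Among them the elongation factor gene Gfm1 averaged 28.1 ± 6.37 CPM in the single colored group, against 36.5 ± 2.01 CPM in the double colored group (SD, n = 4 each), a log2 fold change of −0.38. Mtif3, an initiation factor, averaged 0.948 ± 0.255 and 1.62 ± 0.137 CPM in single and double colored cells (log2 fold change −0.77 ± 0.33, SE). Of 24 tested assembly factors 16 were negative, with a median of −0.13, and they held both Eral1, a chaperone of the small subunit ribosomal RNA, at −0.70 ± 0.25 and Mettl15, a methyltransferase for the same RNA, at 1.02 ± 0.46 (SE). Mitochondrial tRNA synthetases lay near the typical gene, with 10 of 16 negative and a median of −0.09 (Aars2 −0.60, Fars2 0.44). Genes for the copying and transcription of mitochondrial DNA had a median of −0.28 with 10 of 12 negative (Mterf2 −0.83, Polg −0.47). The 5 ribosomal proteins with other names had a median of −0.11, with Dap3 at −0.37 and Aurkaip1 at −0.38.

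The ribosomal RNAs to which these proteins bind are encoded in mitochondrial DNA. The small subunit RNA mt-Rnr1 took 23.7% to 25.7% of all reads in single and 25.5% to 26.1% in double colored libraries. The large subunit RNA mt-Rnr2 took 43.3% to 50.8% and 46% to 51.8%. On the TMM scale their log2 fold changes were −0.51 ± 0.24 and −0.49 ± 0.26 (SE), neither past the threshold, and these values too are relative to the typical gene.

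Set beside 2 other protein machines, the mitochondrial ribosome took a place between them. All 36 nuclear genes of complex I, the first enzyme of the respiratory chain, were negative with a median of −0.35, and 0 passed the threshold, with Ndufv3 at −0.54 and Ndufs6 at −0.50. With the replicate number as a block 4 of them were called lower, where 2.57% of all genes were called lower. Cytosolic ribosomal protein genes had a median of 0.02 with 27 of 64 negative, and 0 were called. Within each library, where the scaling drops out, mitochondrial ribosomal protein reads were 49.9, 38.8, 40.8 and 39.0 per 100 complex I reads in single colored libraries, against 39.4, 38.0, 36.5 and 38.4 in double colored ones, with overlapping groups and a high single colored library 1. Per 100 reads of cytosolic ribosomal protein genes they were 70.0, 95.7, 104 and 97.6 in single colored libraries, against 99.3, 116, 117 and 121 in double colored ones, where only single colored library 3 overlapped the double colored range. Per 10000 reads of the 13 cardiomyocyte markers they were 169, 134, 120 and 152 in single colored libraries, against 164, 118, 122 and 122 in double colored ones. The groups overlapped on that scale. The cardiomyocyte marker sums themselves were mostly lower in single colored libraries on the TMM scale, also with overlapping groups. They were 14600, 24700, 26900 and 23400 CPM in single colored libraries, against 23600, 31100, 29700 and 30800 CPM in double colored ones. The part of these sums in the result was not tested. The differences between these lists were not tested.

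The authors' deposited table gives log2 fold changes of double over single colored cells, the opposite direction. By those deposited values, 62 of 74 genes in the authors' deposited table were higher in double colored cells, with medians of 0.26 for the large and 0.24 for the small subunit. By the deposited p, 4 genes were under 0.05, Mrps31, Mrpl34, Mrpl45 and Mrpl41, where 2.88% of the 15711 genes in the authors' deposited table were under 0.05 and higher in double colored cells. The smallest deposited FDR of these genes was 0.397, and 0 genes of the authors' deposited table had an FDR under 0.05.

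**Figure D5:**
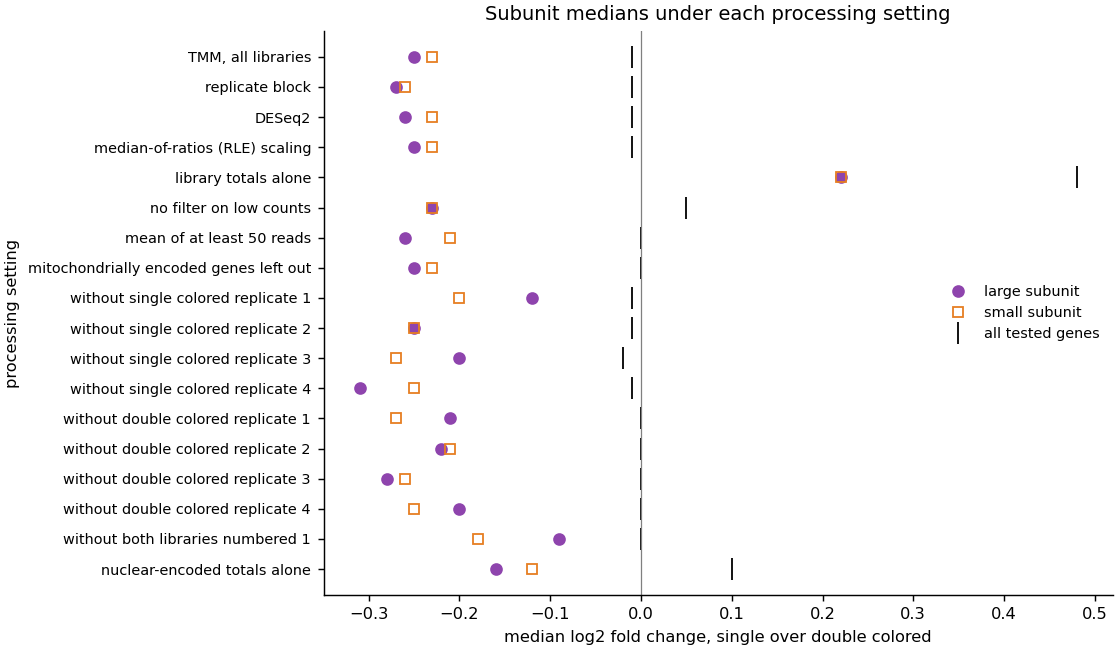
Median log2 fold change (single over double colored) of large subunit genes (circles), small subunit genes (squares) and all tested genes (bars) under each processing setting, 1 setting per line. Both medians lie below that of all genes in each line, they turn positive with library totals alone (0.22 each, all genes 0.48), and the large subunit moves closest to 0 without both libraries numbered 1 (−0.09).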

How the data were processed

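RNA was prepared with the miRNeasy Micro Kit and amplified with the Ovation RNA-seq System v2, per the labels' protocols. The submitters' processing notes name STAR 2.5.2b, featureCounts of Subread and the build mm9. Alignment names in the headers carry a mapping quality of 30. A strand setting was not given in the sources used here. The deposited values used are whole raw read counts per gene, not estimated or expected counts, per the file headers, and they were not rounded. The authors' deposited log2 fold changes and p-values (with FDR) stand in the same table, and their test was not given in the sources used here. Another 24 value columns (deposited CPM and FPKM) were not used.

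Symbols came from GENCODE vM21 for 32919 of 37991 genes, and coordinates are the deposited mm9 ones. Counts were tested with edgeR 4.0.16 in R 4.3.3 (filterByExpr, minimum count 10, TMM, robust quasi-likelihood F-test, Benjamini-Hochberg at 0.05 over 12466 genes), after a check on simulated data. Log2 fold changes have single colored cells on top. CPM use TMM factors of 0.953 to 1.44 in single and 0.733 to 0.972 in double colored libraries. Exon overlaps came from GenomicRanges 1.54.1. Alternatives were DESeq2 1.42.0, other scalings and filters, a replicate block, subunits by structure and leaving out libraries.

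Genes were described in full where they passed the threshold or, in each subunit, were among the 5 with the smallest p or the 3 highest or 3 lowest per length, or were listed for a known role; Mrpl50, Mrps25, Mrpl23 and Mrpl53 were added after their values were seen. Of other lists up to 2 genes with the smallest p are named. The members and lists were chosen with earlier results of these data known.

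Across genes, the deviations from the group mean of libraries with the same number correlated by 0.257, 0.126, 0.136 and 0.139, each over 0.1, against at most 0.108 for other numbers. The numbers were therefore taken as pairs by a fixed rule, although no label says what the number stands for. The pairs enter only the same-numbered differences and the fit with the replicate block. Standard errors and adjusted p-values given without mention of the block come from the unpaired fit. That fit called 309 genes over the whole table, against 939 with the block.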

Additional observations from a re-analysis of the deposited data

Results flagged for a closer look

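Of 74 groups of 4 libraries checked, 6 had a library far from the other 3, where chance alone gives about 1 in 20. Mrpl34 was low in single colored library 1 at 1.86 CPM. Mrpl41 was high in double colored library 3 at 5.49 CPM. Mrps2 was high in single colored library 3 at 5.15 CPM. Mrps18b was high in double colored library 2 at 1.14 CPM. Mrps10 was high in double colored library 4 at 3.30 CPM. Reads of mitochondrial ribosomal protein genes per 10000 cardiomyocyte marker reads were high in double colored library 1 at 164.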

How the results depend on the processing

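The count of genes called over the whole table (309) was 939 with the replicate block, 556 with DESeq2, 1390 with library totals alone, 805 with no filter on low counts and 146 without both libraries numbered 1, a setting chosen after seeing the data. It ran from 134 to 304 when 1 library was left out, with 142 without single colored library 1, 191 without double colored library 2 and 134 without double colored library 4. The count of mitochondrial ribosomal protein genes called stayed at 0 except with the replicate block, where it was 1 (Mrps31). The block changed no other call among the 74 genes. Of the injected genes 1 was called with library totals alone. The large subunit median ran from −0.31 to −0.12 and the small subunit median from −0.27 to −0.20 when 1 library was left out. Both were 0.22 with library totals alone, and the large subunit median was −0.09 without both libraries numbered 1. With subunits assigned by structure they were −0.27 and −0.23. The log2 difference between groups in the ratio of large to small subunit reads was −0.09 to −0.03 when 1 library was left out. It was −0.08 with a mean of at least 50 reads and −0.02 without both libraries numbered 1. The ratio uses raw reads within a library, so a change of scaling alone, DESeq2 and the replicate block could not move it.

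Signs of single genes were followed only for the tested genes chosen by the rule above, not for those added later or for the rest of the 74. Among them, with library totals alone the sign turned for Mrpl3 (0.03), Mrpl42 (0.09), Mrpl16 (0.02), Mrpl30 (0.14), Mrpl48 (0.28), Mrpl19 (0.34), Mrps9 (0.13), Mrps2 (0.17), Mrps18a (0.15), Mrps23 (0.31), Mrps18b (0.02), Mrps10 (0.21), Mrpl12 (0.20), Mrpl58 (0.42), Mrpl11 (0.39), Mrpl44 (0.11), Mrps22 (0.40) and Mrps18c (0.26). Over all 74 genes, 10 values were negative with library totals alone, against 61 with TMM. This scaling moves the median of all genes by itself. Signs also turned under other settings, where the cause was not tested. Mrps12 was −0.11 with the block. Without both libraries numbered 1, Mrpl58 was 0.05, Mrpl11 0.16 and Mrps22 0.06, and with nuclear-encoded totals, also chosen after seeing the data, they were 0.04, 0.04 and 0.01. Leaving out 1 library turned Mrpl58 (−0.2 to 0.05), Mrpl11 (−0.17 to 0.13), Mrps22 (−0.23 to 0.05), Mrps28 (−0.12 to 0.16), Mrps5 (−0.19 to 0.35), Mrps12 (−0.49 to 0.25) and Mrps18b (−0.77 to 0.16).

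The number of reads limits the genes at the low end most, since the mean was 11.9 reads per library in the lowest tested gene.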
